A study of Mus musculus with 2 samples.

Results

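The 10 genes described here belong to the BCL2 family, which controls whether a cell's mitochondria release the signals of programmed cell death. They were chosen by function and symbol, and all 10 were matched by Ensembl identifier among the 36227 genes of the deposited table. Messenger RNA was sequenced from naturally ovulated mouse oocytes at metaphase II (MII) of female ICR mice, an outbred strain, at 16 weeks of age. All the mothers had become obese by 12 weeks in a standard environment. The slimming mothers then spent 4 weeks in enriched-environment (EE) cages, and the control mothers, labelled as fed a standard diet, stayed in normal cages. Each group was 1 library made from 9 oocytes pooled in 1 tube, 3 from each of 3 mice. A group is thus a single library without replicates, so no test was run and every difference below describes these 2 libraries alone.

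BCL2 proteins fall into 3 functional groups. Anti-apoptotic members such as BCL2, BCL-XL (gene Bcl2l1) and MCL1 hold the pore-forming members BAX and BAK in check at the mitochondrial membrane. BOK is grouped with the pore-forming members here. BH3-only members such as BID, BAD and PUMA (gene Bbc3) tip the balance towards pore formation by binding other family members. In mice, PUMA acts downstream of the p53 relative TAp63 when oocytes of the ovarian reserve with damaged DNA are removed, and MCL1 is needed for oocyte survival. BCL2L10, also called DIVA or BOO in the mouse, is known for its expression in the ovary and has been tied to the completion of meiotic maturation. It is grouped with the anti-apoptotic members here, although both anti- and pro-apoptotic activity has been reported for the mouse protein.

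Because the libraries were primed on poly(A) tails, transcript 3′ ends are shown for Bcl2l10, Bcl2l1, Mcl1 and a pair of further family genes. The ovulated oocyte makes almost no new mRNA, and stored transcripts can have their tails lengthened through the cytoplasmic polyadenylation element, which the protein CPEB binds near the polyadenylation signal. Each line gives 30 bases of the mRNA strand, from the longest protein-coding transcript of GENCODE vM21 (GRCm38). Capitals mark the polyadenylation signal AATAAA and, where the window holds one, the element TTTTAT or TTTTAAT.
Bcl2l10: tTTTTAATaacttcaaattcttAATAAAtg
Bcl2l1: gtgcagttcagtAATAAAtggtgtctgtga
Mcl1: ttctgaagagaaAATAAAcctttttccccc
Bcl2l11: taatgaaTTTTATataAATAAAacttgcga
Bcl2l13: cctggaggtgacAATAAAacgagaTTTTAT
These windows lie at chr9:75351590-75351619 (plus strand) for Bcl2l10, chr2:152780677-152780706 (minus strand) for Bcl2l1 and chr3:95663146-95663175 (plus strand) for Mcl1. The window of Bcl2l11, which encodes the BH3-only protein BIM, lies at chr2:128162508-128162537 (plus strand), and that of Bcl2l13, a mitochondrial outer membrane protein, at chr6:120892808-120892837 (plus strand). Of the 10 members, 8 had AATAAA in the last 40 bases of that transcript, against 57.3% of 21899 protein-coding genes, and Bax and Bid had none there. Bcl2l10 was the 1 member of 10 with TTTTAT or TTTTAAT in the last 100 bases, on the mRNA strand, where 16.6% of protein-coding genes had one. Of 16 further family genes 6 had one, and Bcl2l11 and Bcl2l13, shown above, are among these. TTTTAAT can overlap AATAAA in its last 3 letters. A match is a string of letters in the annotated transcript, and the length of the tails was not measured.

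The oocyte origin of both libraries was plain in their markers, and the depth was alike. Levels are given as counts per 1000000 counts of the library (CPM). The slimming library held 20947962 counts and the control library 20242289 counts, so that 1 count was worth 0.0477 CPM in the slimming library and 0.0494 CPM in the control library. All 10 oocyte markers had counts, and their sum was 99276 CPM in the slimming library and 101088 CPM in the control library, most of it from Gdf9 and H1foo. Of the others, the zona pellucida genes Zp3, Zp1 and Zp2 were higher in the slimming library, with log2 ratios of 1.03, 0.94 and 0.81. Ratios of slimming over control are log2 values after scaling with trimmed means (TMM) and adding 0.5 to each count. Their 95% intervals are exact Clopper-Pearson intervals of the slimming share of the counts, and cover counting error of reads only. PCR copies were counted as reads, so the error from sampling few molecules is not covered. For genes below 10 CPM the spread between these libraries was wide. From 1 to 10 CPM, the 10th and 90th percentiles of the log2 ratio were -1.19 and 1.19, against -0.35 and 0.34 from 300 to 1000 CPM.

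Bcl2l10 (ENSMUSG00000032191, chromosome 9) was by far the leading member in both libraries. It had 212358 counts in the slimming library and 233277 counts in the control library, or 10137 and 11524 CPM. That placed it 6th among all genes in the slimming library and 7th in the control library. Its log2 ratio was -0.22 (95% counting interval -0.22 to -0.21), or 1.16-fold lower in the slimming library. Of the 136 genes above 1000 CPM, 44.9% were at least as far from equal, so the difference was within the usual spread between the libraries at that level. No other annotated gene overlaps its exons.

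The plot of levels places the family on 1 scale. Per kilobase of the longest annotated transcript, Bcl2l10 stood at 8309 CPM per kb in the slimming library and 9446 CPM per kb in the control library. That was 130-fold the per-length level of Bcl2l1 in the slimming library and 152-fold in the control library. With the mean length of the coding transcripts in its place, the same quotients were 77.7 and 91.0. Bcl2l10 made up 98.9% of the per-length sum of the 10 members in the slimming library, against 99.1% in the control library. Of the genes with plain names, those nearest to Bcl2l10 in log2 CPM over the 2 libraries included Pttg1, Slc45a3, Zbed3 and Bpgm, at distances of 0.51 to 0.71.

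**Figure D1:**
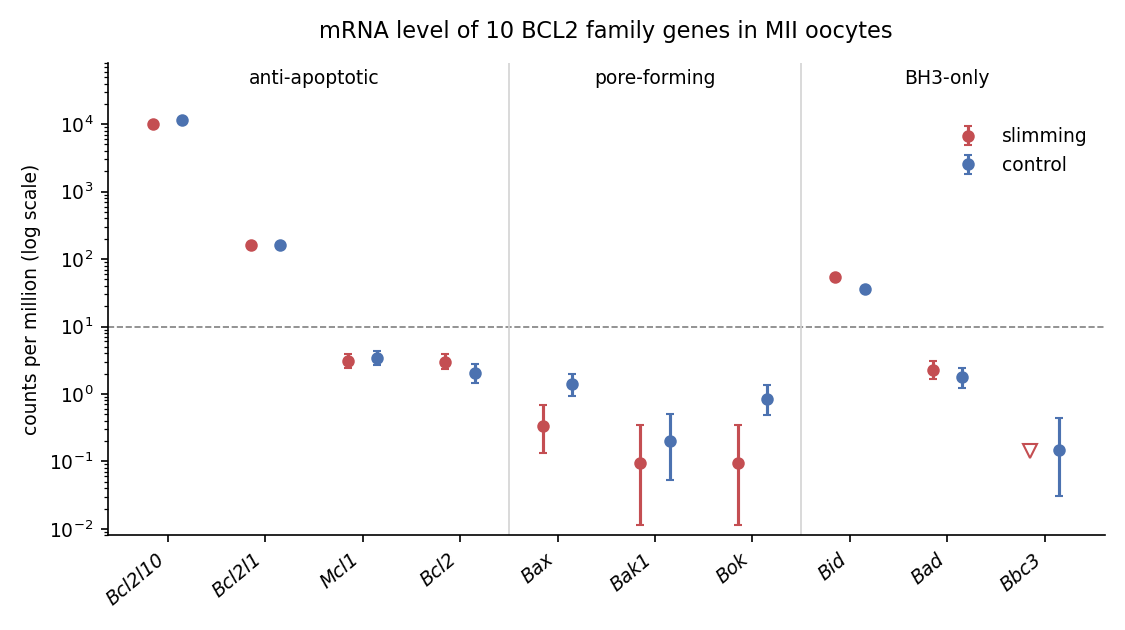
Level of each member in CPM (log scale) in the slimming library (red, left) and the control library (blue, right), with exact Poisson 95% intervals of counting error; the open triangle marks the floor of 3 counts for a gene with 0 counts (0.143 CPM) and the dashed line marks 10 CPM. Bcl2l10, Bcl2l1 and Bid lie above the line in both libraries, and the other 7 members lie below it.

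The other anti-apoptotic members were present at much lower levels. Bcl2l1 (ENSMUSG00000007659, chromosome 2), the gene of BCL-XL, had 3442 counts (164 CPM) in the slimming library and 3229 counts (160 CPM) in the control library. Its log2 ratio of 0.01 (-0.06 to 0.08) was the closest to equality of the members, and its sign turned with upper quartile scaling (-0.03). Mcl1 (ENSMUSG00000038612, chromosome 3), a protein with a short life, had 65 counts (3.10 CPM) in the slimming library and 69 counts (3.41 CPM) in the control library. Its log2 ratio was -0.17 (-0.68 to 0.34), an interval that holds equality. Per length, Bcl2l1 stood 70.5-fold above Mcl1 in the slimming library and 62.3-fold above it in the control library. Bcl2 (ENSMUSG00000057329, chromosome 1), which names the family, had 63 counts (3.01 CPM) in the slimming library and 41 counts (2.03 CPM) in the control library. Its log2 ratio of 0.53 (-0.05 to 1.14) also came with an interval that holds equality, and 51.8% of the 4851 genes from 1 to 10 CPM were at least as far apart.

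Among the BH3-only members, Bid was the 1 member above 10 CPM with a counting interval wholly above equality, and so higher in the slimming library. Bid (ENSMUSG00000004446, chromosome 6), whose protein is activated when caspase-8 cuts it, had 1128 counts (53.8 CPM) in the slimming library and 739 counts (36.5 CPM) in the control library. It was 1.44-fold higher in the slimming library, a log2 ratio of 0.53 (0.39 to 0.67). Of the 1739 genes from 30 to 100 CPM, 16.3% were at least as far apart. Bid shares exon bases with its neighbour Bcl2l13 on the opposite strand, 628 in number, or 17.7% of the exon bases of Bid. The use of strand in counting is not given in the sources used here, so reads of the shared bases cannot be assigned with certainty. Bcl2l13 differed in the same direction, with 2435 counts in the slimming library and 1832 counts in the control library (log2 0.33, 0.24 to 0.42).

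The remaining BH3-only members were scarce. Bad (ENSMUSG00000024959, chromosome 19), which growth factor signalling keeps inactive through phosphorylation and 14-3-3 proteins, had 48 counts (2.29 CPM) in the slimming library and 36 counts (1.78 CPM) in the control library. Its log2 ratio was 0.33 (-0.32 to 1.00), and it shares 20.5% of its exon bases with Gpr137 on the opposite strand. Bbc3 (ENSMUSG00000002083, chromosome 7) had 0 counts in the slimming library and 3 counts in the control library. With a floor of 3 counts, a count of 0 allows up to 0.143 CPM in the slimming library, and 3 counts are 0.148 CPM in the control library, so no fold change is given. The exact Poisson upper limit for the slimming library is 0.176 CPM.

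The 3 pore-forming members were scarce in both libraries, and Bax and Bok had counting intervals wholly below equality, lower in the slimming library. Bax (ENSMUSG00000003873, chromosome 7) had 7 counts in the slimming library and 28 counts in the control library, or 0.334 and 1.38 CPM. Its log2 ratio was -2.01 (-3.52 to -0.85). Bok (ENSMUSG00000026278, chromosome 1), which acts largely at the endoplasmic reticulum, had 2 counts in the slimming library and 17 counts in the control library (log2 -2.89, -6.33 to -1.09). Bak1 (ENSMUSG00000057789, chromosome 17) had 2 counts in the slimming library and 4 counts in the control library, with a log2 ratio of -0.93 (-4.55 to 1.72) whose interval holds equality. Of the 4343 genes from 0.1 to 1 CPM, 37.9% were at least as far apart as Bax and 27.9% as Bok. Bax lies near the upper bound of that class, and among the 1716 genes within 1.5-fold of its own mean level the share was 23.3%, while for Bok it was 24.1% of 1652 genes. Bax and Bak1 share exon bases with other annotated genes, 12.2% of those of Bax with the predicted gene Gm45808 on the same strand and 18.2% of those of Bak1 with Ggnbp1 on the opposite strand.

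Some markers of other cell types were lower in the slimming library, as Bax and Bok were, while others were higher or near equality. Inha, Inhba and Tnfaip6, of granulosa and cumulus cells, had 0 counts in the slimming library and 63, 12 and 8 counts in the control library. Of the 13 markers of those cells, 8 were at 0 in the slimming library, against 6 in the control library, with Fshr, Amh, Foxl2, Ptgs2 and Ptx3 at 0 in both. Their summed level was 533 CPM in the slimming library and 528 CPM in the control library, of which Serpine2 alone held 491 and 475 CPM. The immune cell markers Fcer1g and Tyrobp had 0 counts in the slimming library and 62 and 57 counts in the control library, and Csf1r and Adgre1 had 0 counts there and 8 and 7 counts in the control library. The 12 immune markers summed to 25.8 CPM in the slimming library and 42.7 CPM in the control library, mostly H2-Aa with 374 and 550 counts. In that list 8 markers had no count in the slimming library, against 3 in the control library, and Cd74, Cd3e and Cd79a had none in either. Of the 7 oviduct markers, Tppp3 had 93 counts in the slimming library and 210 counts in the control library (log2 -1.25, -1.62 to -0.90), and Ovgp1 had 0 and 6 counts, while Cdh1, which held most of their sum, had a log2 ratio of 0.01. Laptm5 went the other way, with 86 counts for slimming and 75 for control, as did Has2 (5 and 2), Cd44 (1 and 0) and Dnah5 (26 and 15). Each of these had a counting interval that holds equality. Of the sperm markers, Odf1 had 14 counts for slimming and 0 for control. Of markers with 10 or more counts, 2 of 5 granulosa and cumulus markers were 2-fold or more below control. So were 2 of 5 immune and 2 of 4 oviduct markers. With that many counts, 0 in these lists were as far above control, while 1 of 4 sperm markers was. Across all lists the markers thus did not differ in 1 direction alone, but the larger differences in the granulosa, immune and oviduct lists were all downward at that depth. The part of transcripts from other cell types in the counts of Bax and Bok was not tested. Fewer cells of a type cannot be told apart from less RNA per cell in pooled samples.

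**Figure D2:**
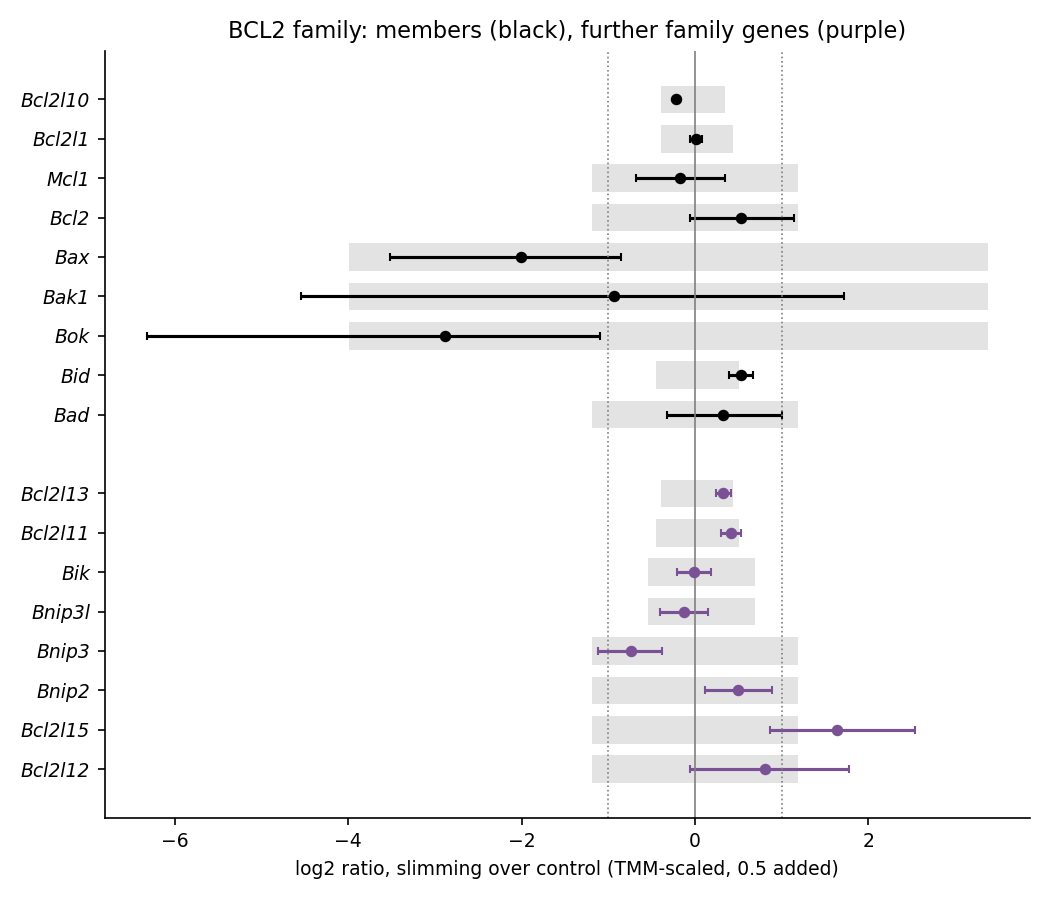
Log2 ratio of slimming over control with 95% counting intervals for the 9 members with a fold change (black) and for further family genes with a count in both libraries (purple); grey bars span the 10th to 90th percentile of all genes in the same class of mean level, and dotted lines mark 2-fold. Bax and Bok lie beyond 2-fold on the lower side but inside the wide grey bars of their class, and Bid lies just past the upper end of its bar.

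Counted together, 3 of the 10 members (Bcl2l10, Bcl2l1 and Bid) passed a minimum of 10 CPM in either library. Of these, 0 were at least 2-fold higher in the slimming library, where the share over 5714 genes was 2.73%, and 0 were at least 2-fold lower, where it was 1.94%. At 1.5-fold the members again numbered 0 higher and 0 lower, against 10.3% and 7.16% of the same genes. Their median log2 ratio was 0.01, against 0.02 over all 5714 genes. A minimum of 1 CPM in either library let 7 members through, among which Bax passed by its control level alone and was the 1 member past 2-fold or 1.5-fold on the lower side. Of 11010 such genes, 8.96% were lower by 2-fold and 16.5% by 1.5-fold, while 9.43% and 18.5% were higher, where the members numbered 0. With no minimum, and Bbc3 left out because it has no fold change, Bax and Bok were the 2 members lower by 2-fold, against 20.9% of 18017 genes, and Bak1 made 3 at 1.5-fold, against 27.8%. Those shares include genes as scarce as Bbc3. On the higher side the members numbered 0 at both, against 17.7% and 24.9%. In the authors' deposited table, Bcl2l10, Bid, Bax and Bok were marked at a p-value of 0.001, 4 of the 9 members with a p-value, where 35.9% of 15263 genes were marked. It sets the reads of single libraries against each other and holds no replicate.

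**Figure D3:**
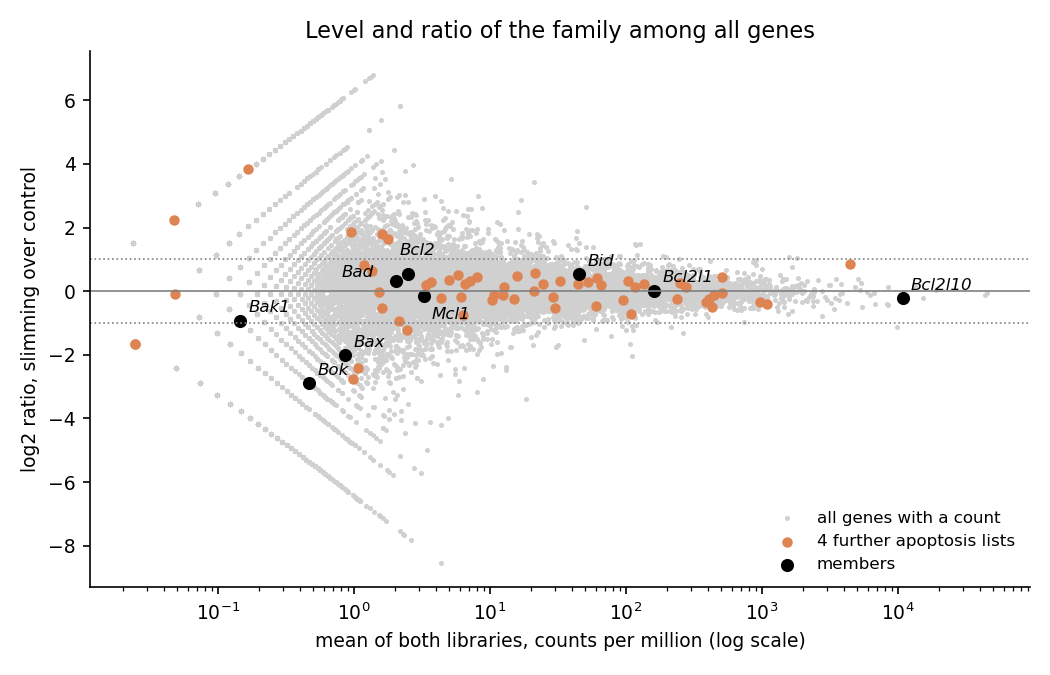
Log2 ratio of slimming over control against the mean level of both libraries in CPM (log scale) for all genes with a count (grey), the genes of 4 further apoptosis lists (orange) and the members (black, Bbc3 left out); dotted lines mark 2-fold. Bcl2l10 lies at the far right of the cloud with a log2 ratio of -0.22, and the spread of all genes widens to the left, where Bax, Bok and Bak1 lie.

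The order of the members per length was the same at the top of both libraries and could not be resolved at the bottom. Bcl2l10, Bcl2l1 and Bid led in that order, at 8309, 64.0 and 22.3 CPM per kb in the slimming library and 9446, 62.1 and 15.1 CPM per kb in the control library, with counting intervals that did not overlap. Next in the slimming library came Bad (1.49 CPM per kb), Mcl1 (0.908), Bcl2 (0.418), Bax (0.304), Bok (0.0650), Bak1 (0.0400) and Bbc3 (0). Of these neighbours, only the intervals of Mcl1 and Bcl2 did not overlap. In the control library the order was Bax (1.26 CPM per kb), Bad (1.16), Mcl1 (0.997), Bok (0.572), Bcl2 (0.282), Bak1 (0.0828) and Bbc3 (0.0817), and every pair of neighbours among these 7 overlapped. Lengths come from a later build than the counts, and oligo(dT) priming favours the 3′ end, so levels per length are approximate.

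Since Bcl2l10 held 97.8% of the members' counts in the slimming library, against 98.2% in the control library, the balance of the groups was also taken without it. Of all 10 members' counts, the anti-apoptotic genes held 99.5% in the slimming library, against 99.7% in the control library. Without Bcl2l10 they held 75.0% (exact 95% interval 73.8 to 76.3) of 4757 counts in the slimming library and 80.1% (78.9 to 81.4) of 4166 counts in the control library. The BH3-only genes held 24.7% and the pore-forming genes 0.231% in the slimming library, against 18.7% and 1.18% in the control library. Nearly all of the anti-apoptotic share without Bcl2l10 came from Bcl2l1, and nearly all of the BH3-only share from Bid. These shares hold for the 10 members alone and depend on that list. The BH3-only genes Bcl2l11 and Bik, outside it, had 1489 and 449 counts in the slimming library. In the control library they had 1056 and 427 counts. Counting them would lower the anti-apoptotic share without Bcl2l10 in both libraries. Per length, Bcl2l1 stood 2.87-fold above Bid in the slimming library and 4.11-fold above it in the control library.

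**Figure D4:**
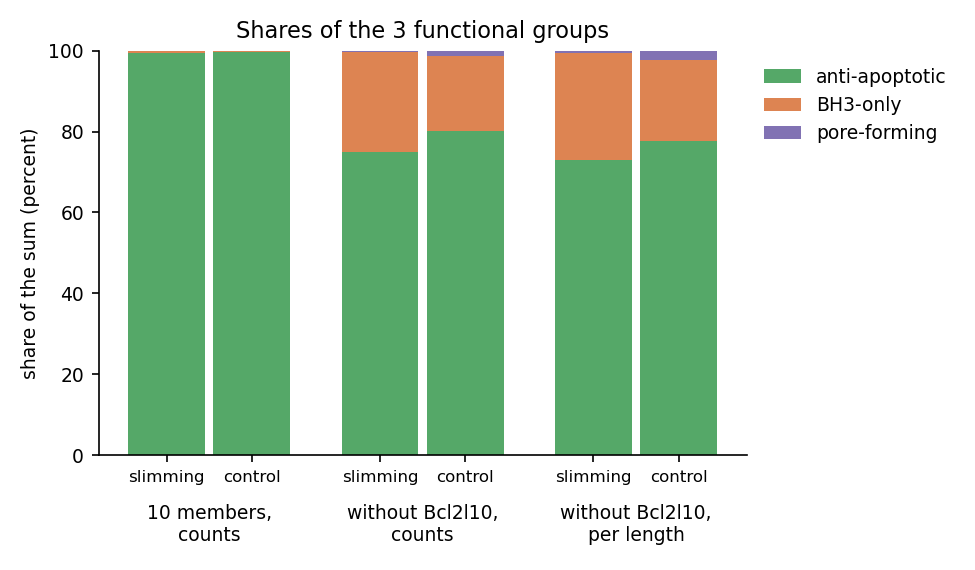
Share of anti-apoptotic (green), BH3-only (orange) and pore-forming (purple) members in the sum over the members, in percent, for the slimming library (left bar of each pair) and the control library (right bar), by counts with and without Bcl2l10 and per length without it. Without Bcl2l10 the anti-apoptotic share by counts is 75.0% for slimming, against 80.1% for control.

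Further family genes showed the same contrast of a few abundant and many scarce transcripts. Of 16 genes listed, 14 were in the table and 4 reached 10 CPM in at least 1 library, with a median log2 ratio of 0.16. Of these 4 genes 0 were at least 2-fold apart, against 2.73% higher and 1.94% lower over 5714 such genes. Bcl2l11 had 1489 counts (71.1 CPM) in the slimming library and 1056 counts (52.2 CPM) in the control library, 1.33-fold higher in the slimming library (log2 0.41, 0.30 to 0.53). Of the genes at its level 26.2% were at least as far apart. Bcl2l13, described above beside Bid, was 1.26-fold higher. The BH3-only gene Bik had 449 counts in the slimming library and 427 counts in the control library (log2 -0.01, -0.20 to 0.19), and Bnip3l, a mitophagy receptor, had 216 and 223 counts (log2 -0.13, -0.40 to 0.15). Thus of 8 BH3-only genes examined, Bid, Bcl2l11 and Bik were the 3 above 10 CPM. Pmaip1 (NOXA) and Hrk had 0 counts in the slimming library and 1 count each in the control library. Bcl2a1b, Bmf and Bcl2l14 had no count in either library, and Bcl2l2 (BCL-W) had 7 counts in the slimming library, against 0 in the control library.

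Below 10 CPM, Bnip3, another mitophagy receptor, had 101 counts in the slimming library and 160 counts in the control library (log2 -0.74, -1.12 to -0.38). Bnip2 had 145 and 97 counts (log2 0.50, 0.12 to 0.89), and Bcl2l12 had 32 and 17 counts (log2 0.81, -0.06 to 1.77). Bcl2l15 had 57 counts in the slimming library and 17 counts (0.840 CPM) in the control library, 3.11-fold higher (log2 1.64, 0.86 to 2.54), and 11.2% of the genes from 1 to 10 CPM were at least as far apart. Bcl2l15 shares 21.0% of its exon bases with Gm43064 on the same strand. On the opposite strand, Bcl2l12 shares 28.9% of its exon bases with Gm15545, and Bnip3 shares 22.3% with Gm45507.

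Downstream of the mitochondria act the caspases, the apoptosome and their inhibitors. Of 19 genes listed, 9 reached 10 CPM in at least 1 library, 5 with a log2 ratio above 0 and 4 below it. Their median was 0.12, and 0 were at least 2-fold apart, against 2.73% higher and 1.94% lower over 5714 such genes. Birc5 (survivin), an inhibitor of apoptosis family member that also serves the chromosomal passenger complex, had 597 CPM in the slimming library and 428 CPM in the control library (log2 0.45, 0.41 to 0.49). Apaf1, the scaffold of the apoptosome, had 18.5 CPM in the slimming library and 13.1 CPM in the control library (log2 0.46, 0.24 to 0.69). Birc6, a giant ubiquitin ligase that restrains caspases, had 51.1 CPM in the slimming library and 69.0 CPM in the control library (log2 -0.47, -0.58 to -0.35).

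Upstream, 8 of 12 genes of the p53 family and stress regulators reached 10 CPM, 4 above and 4 below a log2 ratio of 0. Of these 0 were at least 1.5-fold higher or lower, against 10.3% and 7.16% of all genes at that level. Mapk8 (JNK1), a stress kinase, had the ratio farthest from 0, with 361 CPM in the slimming library and 494 CPM in the control library (log2 -0.48, -0.53 to -0.44), and 7.95% of the 453 genes from 300 to 1000 CPM were at least as far apart. Foxo3, which holds follicles in the ovarian reserve in mice, had 867 and 1069 CPM (log2 -0.33, -0.36 to -0.31), and the p53 regulator Mdm4 had 58.5 and 46.8 CPM (log2 0.29, 0.17 to 0.41). Trp63, the gene of TAp63, had 197 counts in the slimming library and 226 counts in the control library (log2 -0.28, -0.56 to 0.00).

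Among genes that reached 10 CPM, the list of partners and regulators of BCL2 proteins held both the highest and the lowest ratio of the 4 further lists. Of 18 genes, 13 reached 10 CPM in at least 1 library, with a median log2 ratio of -0.24, 5 above and 8 below 0, and 0 at least 2-fold apart. Itpr2, an inositol trisphosphate receptor of a type that BCL2 proteins and BOK bind, had 5703 CPM in the slimming library and 3120 CPM in the control library. It was 1.79-fold higher (log2 0.84, 0.83 to 0.85), and 2.94% of the 136 genes above 1000 CPM were at least as far apart. Ywhaz, a 14-3-3 protein, had 83.0 and 135 CPM and was 1.66-fold lower in the slimming library (log2 -0.73, -0.82 to -0.65). Vdac2, the outer membrane channel that binds BAK, had 25.8 CPM in the slimming library and 16.9 CPM in the control library (log2 0.58, 0.38 to 0.78). Across the 4 further lists, 34 genes reached 10 CPM in at least 1 library, 16 above and 18 below 0, and 0 of them were past 2-fold on either side, against 2.73% higher and 1.94% lower over all such genes.

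**Figure D5:**
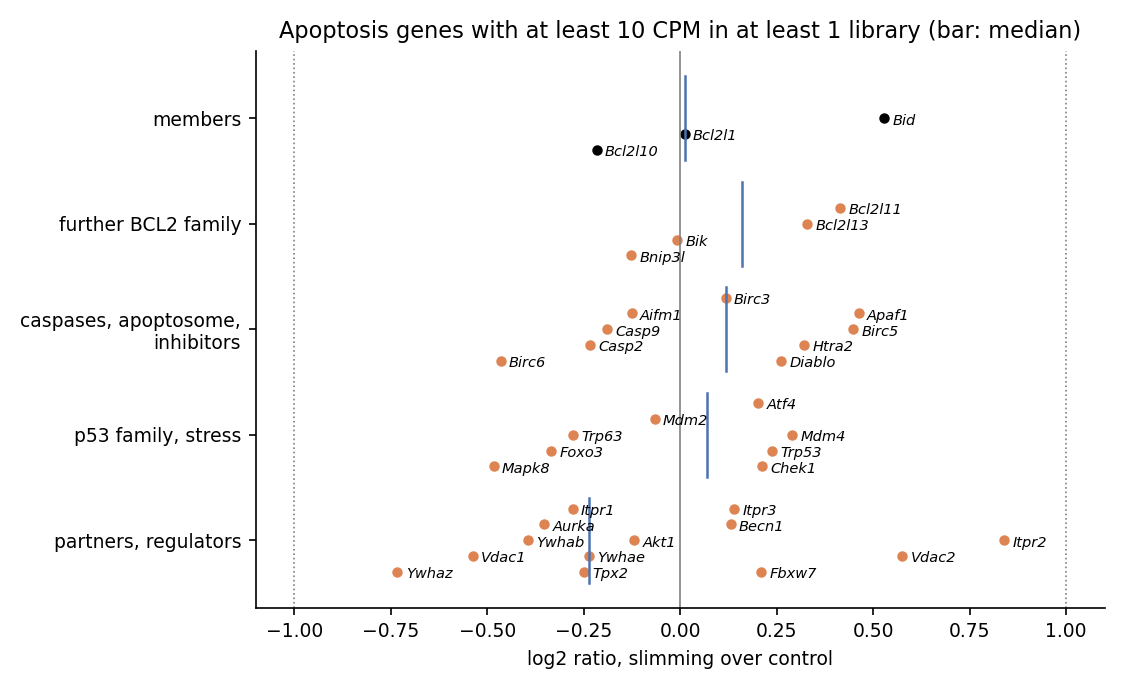
Log2 ratio of slimming over control for each gene that reached 10 CPM in either library, by list, with members in black, other lists in orange, the median of each list as a blue bar and dotted lines at 2-fold. All 37 genes lie within 2-fold, with Itpr2 at 0.84 and Ywhaz at -0.73 at the ends.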

How the data were processed

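The authors deposited raw read counts per Ensembl gene, 1 column per library, with the groups named per the file headers. The submitters' processing notes name the build mm9. The aligner, the counting program and whether strand was used: not given in the sources used here. Per the labels' protocols, cDNA was primed with an oligo(dT) stretch of 24 bases and amplified for 18 and then 14 PCR cycles before SOLiD 4 sequencing, with no molecular identifiers named, so PCR copies were counted as reads. Counts were listed for 18017 genes and missing for the others, which was read as 0. The authors' deposited table also gives log2 fold changes, a Z score, a p-value and q-values per gene, for slimming over control.

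Symbols came from GENCODE identifiers (16913 of 18017 genes with counts), as did lengths, overlaps and 3′ ends (vM21, GRCm38). CPM used total counts; edgeR 4.0.16 (R 4.3.3) gave the TMM factors of the ratios, 1.01 for slimming and 0.989 for control. Intervals came from scipy 1.17.1 under Python 3.11.15, joins from pandas 2.3.3, and plots from matplotlib 3.10.9. The ratio and its interval were tested on simulated Poisson counts, the model that the interval assumes, with the scarcest genes left out. That simulation held neither PCR copies nor spread between libraries beyond counting error, so it does not show how the interval behaves with them. Members, lists and thresholds were chosen with earlier results of these data known. All 10 members were named. Of the further family list, each gene above 10 CPM was named, with those of at least 10 counts given briefly. Of the other lists, the 3 genes with the largest absolute ratio, the most abundant gene and any gene past 2-fold were named. Trp63, the family genes under 10 counts and the marker genes with unequal counts were chosen after their values were seen, as was the class from 0.1 to 1 CPM. The genes nearest to Bcl2l10 were taken by Euclidean distance, passing over predicted and clone names. A few genes that these rules pick are not reported here. Of 75 listed genes 73 were in the table, and Bcl2a1a and Bcl2a1d were not analysed here. Markers of the oviduct, sperm and red blood cells summed to 246, 560.1 and 1.24 CPM in the slimming library and 245, 648 and 0.840 CPM in the control library, nearly all from Cdh1, Odf2 and Epb42.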

Additional observations from a re-analysis of the deposited data

How the results depend on the processing

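Total-count scaling, DESeq2 1.42.0 size factors, upper quartile factors and 2 added to each count left the members' counts past 1.5-fold and 2-fold unchanged. Of the 9 members with a fold change, 8 kept their direction under these 4 alternatives, and Bcl2l1, near equality, ranged from -0.03 to 0.04 in log2. Between 2 libraries a change of scaling shifts every log2 ratio by the same amount. Only a member near equality could therefore turn, and the kept directions are no independent check. Bid ranged from 0.48 to 0.56 and Bcl2l10 from -0.26 to -0.18. Lowering the filter to 1 CPM admitted scarce genes, and 1 of 7 members was lower by 2-fold and 1 by 1.5-fold. Over all 11010 such genes, 8.96% and 16.5% were lower. In the 4 further lists 3 genes were higher and 3 lower by 2-fold, against 9.43% and 8.96%. With no filter 3 of 10 members were lower by 2-fold and 4 by 1.5-fold, against 20.9% and 27.8% of 18017 genes. The members' median log2 ratio was then -0.19. In the further lists 5 genes were higher and 5 lower by 2-fold, against 17.7% and 20.9%. The members' values with no filter include Bbc3, whose ratio rests on the added 0.5 alone. Without it 2 and 3 members were lower and the median was -0.17. The anti-apoptotic share was 99.7% for slimming and 99.8% for control when counts were divided by length, and 75.0% for slimming and 80.1% for control without Bcl2l10. Against genes within 1.5-fold of a member's mean level, an alternative chosen after seeing the data, the share at least as far from equality was 23.3% for Bax, 24.1% for Bok, 72.3% for Bak1, 85.9% for Mcl1, 56.8% for Bcl2, 73.9% for Bad and 57.1% for Bcl2l10 (7 genes only). It stayed within counting error for Bcl2l1 and Bid. With the mean coding length, 12 of 20 levels per length left their counting interval. No paired analysis was possible because each group is 1 library, and for the same reason no library could be left out.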

Other observations

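Among scarce genes of the 4 further lists, 6 that reached 1 CPM in either library were at least 2-fold apart. Those given here were named after their values were seen. All but Pim1 passed that minimum only through the library where they were higher. The genes that passed numbered 8 in the further family list, 18 among caspases, 11 in the p53 list and 18 among partners. On the higher side, Bag1, a co-chaperone first known as a BCL2 partner, had 53 counts in the slimming library and 14 counts in the control library (log2 1.80, 95% counting interval 0.97 to 2.80), and Bcl2l15 is given above. On the lower side, Casp6, an executioner caspase, had 7 counts in the slimming library and 37 counts in the control library (log2 -2.40, -3.89 to -1.30). Cycs, the somatic cytochrome c that the apoptosome binds, had 5 counts in the slimming library and 35 counts in the control library (log2 -2.77, -4.60 to -1.53), and its many processed pseudogenes make its count uncertain. Pim1, a kinase that phosphorylates BAD, had 31 counts in the slimming library and 69 counts in the control library (log2 -1.22, -1.90 to -0.60). Over 11010 genes passing the same filter, 9.43% were higher and 8.96% lower by 2-fold or more.

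The inositol trisphosphate receptors differed among themselves in level and in ratio. Per kilobase of the longest transcript, Itpr2 stood at 488 CPM per kb in the slimming library and 267 CPM per kb in the control library. Itpr1 stood at 8.76 and 10.4 CPM per kb (log2 ratio -0.28, -0.37 to -0.19), and Itpr3 at 1.49 and 1.32 CPM per kb (log2 ratio 0.14, -0.11 to 0.40).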
